A study of Mus musculus with 12 samples.

Results

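Cyclic AMP (cAMP) signalling genes were examined in RNA from neurons of the basolateral amygdala (BLA) of mice that received footshocks or met a female mouse. The genes are 10 in number: the adenylyl cyclase genes Adcy1, Adcy2, Adcy3, Adcy5, Adcy8 and Adcy9, and the protein kinase A subunit genes Prkaca, Prkacb, Prkar1b and Prkar2b. They were chosen by name, as probe sets whose only gene symbol in the authors' deposited table is one of these, which gave 29 of 45037 probe sets. The brightest probe set by mean RMA value represents each gene, an _x_at probe set (one that can share probes with other sequences) being used only where there was no other.

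The BLA expressed PABPC1, a poly(A)-binding protein, with a FLAG tag under the fos promoter, which responds to neuronal activity. RNA bound to the tagged protein was immunoprecipitated. Both groups carried this construct and differed in exposure: footshocks in the shock group and a female mouse in the female group. Each group had 3 Affymetrix Mouse 430 2.0 arrays, deposited once as RMA and once as MAS5 values. The labels give no strain, age or genotype. The design note gives 2 mice pooled per sample and 3 mice per group. Taken as written, arrays of a group share mice and are not independent. Every p-value below measures the spread between arrays and treats the arrays as independent. Less RNA per cell and fewer contributing cells cannot be told apart in such samples.

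Adenylyl cyclases make the second messenger cAMP from ATP when receptors coupled to stimulatory G proteins are active. In its resting state protein kinase A is a tetramer of a pair of regulatory and a pair of catalytic subunits, and cAMP binding to the regulatory subunits frees the catalytic ones. The kinase phosphorylates channels, receptors and the transcription factor CREB, and this pathway is a textbook component of synaptic plasticity and of fear memory in the amygdala. Cyclase isoforms differ in their inputs: those encoded by Adcy1 and Adcy8 are stimulated by calcium and calmodulin, that encoded by Adcy5 is inhibited by calcium and by inhibitory G proteins, and that encoded by Adcy2 is stimulated by G protein beta-gamma subunits.

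Of the 10 genes, 3 differed between the groups at their representative probe set. Prkar2b, which encodes the regulatory subunit RII beta, and Adcy3, a cyclase best known from olfactory neurons and primary cilia, were each 1.47-fold higher in shock. Prkaca, which encodes the catalytic subunit C alpha, was 1.27-fold higher in female. Differences are shock minus female in RMA values (log2), tested with limma across 27022 probe sets, and a probe set is said to differ where its Benjamini-Hochberg adjusted p is under 0.05. Over all 13203 genes tested, 20.0% differed by the same rule, 10.6% higher in shock and 9.40% higher in female, so 3 of 10 is not far from that background. The groups did not overlap at 5 of the 10 representatives, against 48.7% of all genes. The difference was above 0 in 9 of the 10 and in 57.7% of all genes, and its median was 0.15 against 0.0612 over all genes. This held for the representatives: the median was 0.02 over all 27 tested probe sets of the 10 genes, against 0.0201 over all probe sets, and -0.02 over the 17 that are not representatives. With each gene's probe sets averaged it was -0.02.

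**Figure D1:**
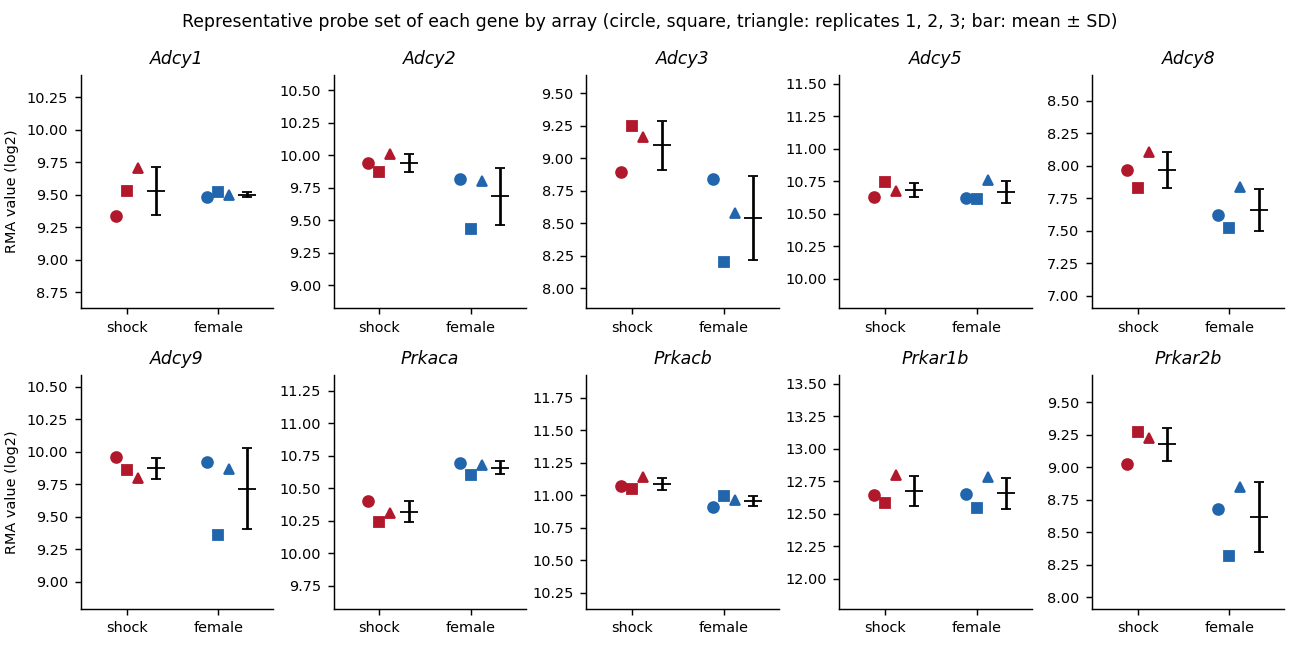
RMA value (log2) of the representative probe set of each gene in the 3 shock (red) and 3 female (blue) arrays, with the mean and SD of each group in black; each panel spans the same height. The groups are separate for Adcy2, Adcy3, Prkaca, Prkacb and Prkar2b, and female replicate 2, the square, is the lowest female array for every gene except Adcy1 and Prkacb.

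The arrays themselves differed in ways that went with the groups. In 2740 genes that have a 5' and a 3' probe set apart, the median 5' minus 3' signal was -0.81 to -0.74 (log2) in the shock arrays and -0.57 to -0.38 in the female arrays, where it was highest in female replicate 2. Pearson correlations between arrays were 0.991 to 0.993 within shock, 0.974 to 0.994 within female and 0.936 to 0.985 between the groups. Neuronal markers had a mean RMA value of 11.81 to 11.88 in shock and 11.97 to 12.03 in female, and 3 of 7 were higher in female. The mean for oligodendrocyte markers was 9.71 to 9.98 in shock and 10.05 to 10.58 in female, with 3 of 10 higher in female. Means for astrocytes (2 of 8 higher in female), microglia (3 of 7) and endothelium (1 of 4) were 10.35 to 10.48, 7.20 to 7.32 and 7.63 to 7.69 in shock and 10.36 to 10.70, 7.40 to 7.82 and 7.73 to 8.07 in female. Markers of striatal medium spiny neurons, in which Adcy5 is abundant, ran from 8.92 to 9.03 in shock and from 8.92 to 9.71 in female, with 1 of 7 higher in each group. Over the 6 marker lists, 13 of 43 tested genes were higher in female and 1 was higher in shock. Over all genes tested, 9.40% were higher in female and 10.6% higher in shock. The markers C1qa, Pecam1 and Drd2 were too dim to be tested. The part of these other cells in the results below was not tested.

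Among the regulatory subunits, Prkar2b was higher in shock and Prkar1b was not. The Prkar2b representative (probe set 1456475_s_at, chromosome 12, positions 31958475 to 31967254 on the minus strand of a build that the sources used here do not name) had RMA values of 9.03, 9.27 and 9.23 in shock and 8.68, 8.32 and 8.85 in female. All shock arrays lay above all female arrays. The group values were 9.18 ± 0.13 and 8.62 ± 0.27 (log2, SD, n = 3), which differed by 0.56 (SE 0.14; limma adjusted p = 0.0264). A second Prkar2b probe set with the same listed positions, 1438664_at, read 8.41, 8.65 and 8.77 in shock and 8.26, 7.69 and 8.18 in female, again without overlap (difference 0.57, limma adjusted p = 0.0361). The third, 1430640_a_at, whose listed target spans positions 31958477 to 32061257, showed overlapping groups and a difference of -0.02 (95% interval -0.38 to 0.34). Without female replicate 2 the differences of the first and second probe sets were 0.41 (limma adjusted p = 0.0219) and 0.39 (limma adjusted p = 0.0354). Leaving out any 1 shock array ended the call of the representative (limma adjusted p = 0.0784, 0.0882 and 0.0908 without replicates 1, 2 and 3) at differences of 0.63, 0.51 and 0.53. In these fits, in the same order, 1.19%, 5.78% and 4.86% of all tested probe sets differed, against 20.8% with all arrays. On MAS5 values as log2(value + 16) the representative differed by 0.43 (limma adjusted p = 0.147), with intensities of 922.3, 930.2 and 1043 in shock and 748.8, 613.2 and 780.7 in female.

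Prkar1b encodes the regulatory subunit RI beta, which is found mainly in the nervous system. Its representative, 1440132_s_at (chromosome 5, positions 139017307 to 139017831, minus strand), read 12.64, 12.58 and 12.80 in shock and 12.65, 12.54 and 12.78 in female. The groups overlapped, and the difference was 0.02 with a 95% interval of -0.23 to 0.26. Another 3 probe sets of the gene had differences between -0.02 and 0.14, none of which passed. The dimmest one, 1416754_at, read 8.14, 8.30 and 7.98 in shock and 9.08, 9.86 and 9.28 in female, so every female array lay above every shock array. Its difference was -1.27 (SE 0.18; 2.41-fold, limma adjusted p = 0.00558). That probe set has the same listed target (positions 139017306 to 139130159) as 1416753_at, whose difference was -0.02 (95% interval -0.25 to 0.20).

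The catalytic subunits also gave different answers by probe set. For Prkaca the representative, 1450519_a_at (chromosome 8, positions 83973001 to 83996412, plus strand), read 10.40, 10.24 and 10.31 in shock and 10.69, 10.60 and 10.68 in female. The groups did not overlap, and the difference was -0.34 (SE 0.10; limma adjusted p = 0.0368). MAS5 intensities were also higher in every female array, with 1533, 1391 and 1588 in shock and 1828, 2121 and 1944 in female. Their difference of -0.38 did not pass (limma adjusted p = 0.159). Its other probe set, 1447720_x_at, lies at positions 83996213 to 83996435 and read 10.47, 10.84 and 10.42 in shock and 10.53, 10.34 and 10.57 in female. Those groups overlapped, with a difference of 0.10 (95% interval -0.20 to 0.39). The call at the representative was kept without female replicate 2 (-0.37, limma adjusted p = 0.0197). It was lost when any other array was left out, with limma adjusted p of 0.0912, 0.111 and 0.108 without shock replicates 1, 2 and 3 and of 0.0722 and 0.0849 without female replicates 1 and 3.

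Prkacb encodes C beta, the other catalytic subunit expressed widely in brain. Its representative, 1420611_at (chromosome 3, positions 146729574 to 146812960, minus strand), read 11.07, 11.05 and 11.14 in shock and 10.91, 10.99 and 10.96 in female. The groups did not overlap, but the difference of 0.14 (95% interval -0.07 to 0.34) did not pass. A dimmer probe set with the same listed target, 1420610_at, read 9.10, 9.25 and 8.85 in shock and 9.49, 10.02 and 9.69 in female. Here the female arrays were all higher, and the difference was -0.67 (SE 0.15; 1.59-fold, limma adjusted p = 0.019). The remaining Prkacb probe set, 1457197_at, was too dim to be tested, at 4.93 to 5.39 in all 6 arrays.

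Adcy3 was the only cyclase of the 6 whose representative passed. Its probe set 1436928_s_at (chromosome 12, positions 4213025 to 4213524, plus strand) read 8.89, 9.25 and 9.16 in shock and 8.84, 8.20 and 8.58 in female. All shock arrays lay above all female arrays, with shock replicate 1 close to female replicate 1. The group values were 9.10 ± 0.19 and 8.54 ± 0.32 (log2, SD, n = 3), which differed by 0.56 (SE 0.16; limma adjusted p = 0.0405). Of its other probe sets, 1421960_at was at 0.29, 1436929_x_at at 0.05 and 1421959_s_at at -0.25, and none passed. Without female replicate 2 the difference of the representative was 0.39 (limma adjusted p = 0.0501), and on MAS5 values it was 0.06 (limma adjusted p = 0.84), where the groups overlapped. The call was also lost without shock replicates 1, 2 and 3 (limma adjusted p = 0.0877, 0.126 and 0.122) and without female replicate 3 (0.0716).

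For Adcy5 the outcome depended on which probe set was read. The representative, 1455296_at (chromosome 16, positions 35299482 to 35305738, plus strand), read 10.63, 10.74 and 10.67 in shock and 10.62, 10.61 and 10.76 in female. The groups overlapped, with a difference of 0.02 (95% interval -0.20 to 0.24), and 1447696_x_at nearby was at 0.00 (95% interval -0.22 to 0.21). Probe set 1439829_at read 7.63, 7.56 and 7.52 in shock and 8.33, 9.26 and 8.88 in female. All female arrays were higher, and the difference was -1.25 (SE 0.19; 2.38-fold, limma adjusted p = 0.0064). The files list it on the minus strand at positions 35156530 to 35157114, a distance of 142368 bases from the start of the representative's target, which is on the plus strand. Another minus-strand probe set, 1443080_at (positions 35301134 to 35301822), was too dim to be tested and read 5.94, 6.02 and 5.91 in shock and 6.28, 6.23 and 6.27 in female. Whether these minus-strand probe sets detect the Adcy5 mRNA was not tested.

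The remaining cyclase genes did not pass. Adcy8 (1418754_at, chromosome 15) read 7.97, 7.83 and 8.11 in shock and 7.62, 7.52 and 7.84 in female, a difference of 0.31 (95% interval 0.04 to 0.58, limma adjusted p = 0.0888). Female replicate 3 reached into the shock range. Adcy2 (1455462_at, chromosome 13) read 9.94, 9.87 and 10.01 in shock and 9.82, 9.43 and 9.80 in female, a difference of 0.25 (95% interval -0.02 to 0.53). Its groups did not overlap, and without female replicate 2 the difference was 0.13. Adcy1 had differences of 0.02 (95% interval -0.23 to 0.28) at its representative and -0.15 at the other probe set. Adcy9, which encodes a cyclase insensitive to forskolin, had differences of 0.15, 0.31, -0.15 and -0.21 at its 4 probe sets, all with overlapping groups.

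**Figure D2:**
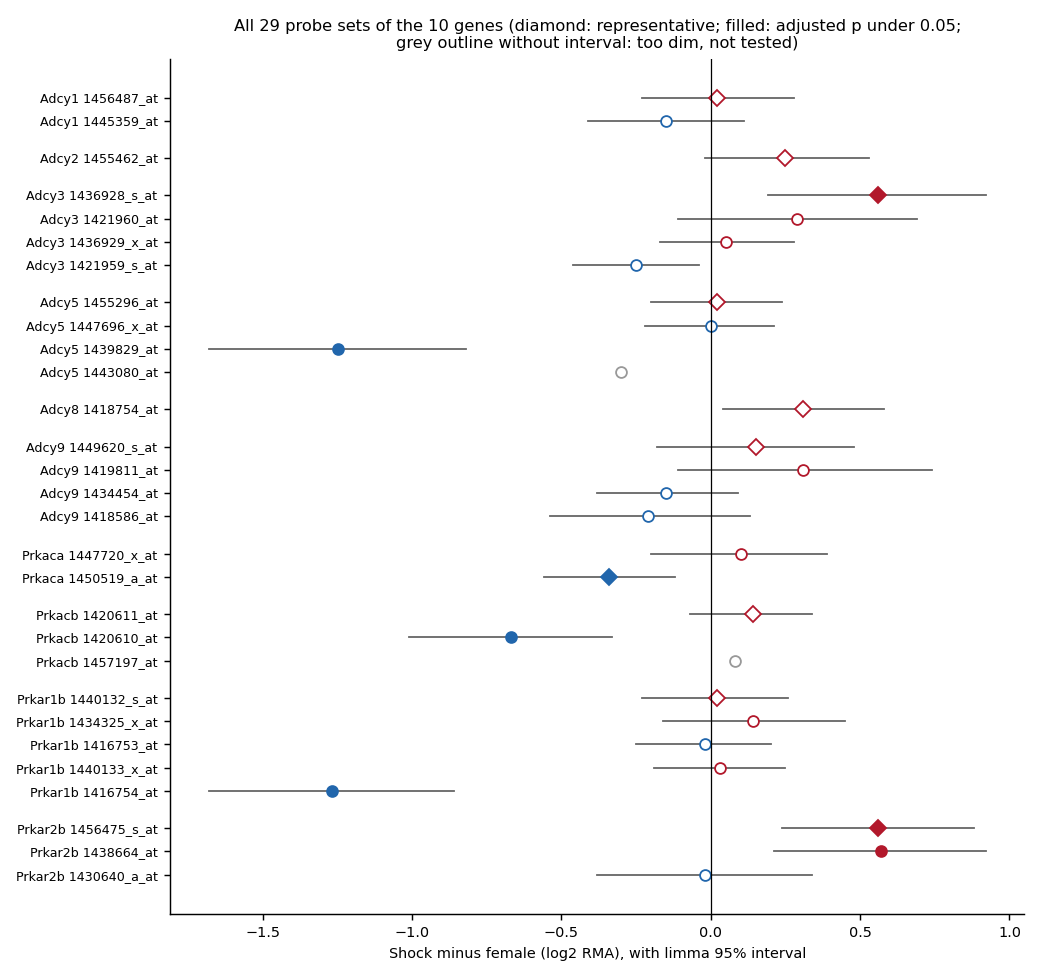
Shock minus female difference (log2 RMA) of each of the 29 probe sets, with limma's 95% interval for the 27 that were tested; diamonds are representatives and filled symbols have an adjusted p under 0.05. The differences furthest from 0, -1.27 at Prkar1b and -1.25 at Adcy5, are at the dimmest tested probe set of each gene.

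Counting all probe sets, 7 of 27 tested differed, 3 higher in shock (0.56 to 0.57) and 4 higher in female (-1.27 to -0.34). By symbol they belong to 6 of the 10 genes, Adcy5 only through 1439829_at, which is listed on the strand opposite to its representative. The 7 of 27 are 25.9%, against 20.8% of all tested probe sets (9.31% higher in shock and 11.5% higher in female). The groups did not overlap at 10 of the 27, against 47.7% of all. In the authors' deposited table, which has its own test, no probe set of these genes had an FDR p under 0.05. Its lowest FDR p among them was 0.127 and its lowest over all probe sets 0.081. The authors' deposited table gave female against shock folds of 2.41 for Adcy5 1439829_at, 2.26 for Prkar1b 1416754_at and -1.51 for Prkar2b 1456475_s_at, a negative fold meaning higher in shock.

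Disagreement between probe sets of a gene was tested directly, as the within-array difference of another probe set from its representative, compared between shock and female over 10699 such pairs of all genes. Of the 17 pairs from 8 of these genes, 5 differed, in Adcy3, Adcy5, Prkacb and Prkar1b, and in each the other probe set was lower relative to the representative in shock. The share over all pairs was 26.4%, with 19.0% in that direction and 7.39% in the opposite one, so 5 of 17 is near the background. The groups did not overlap in 9 of the 17 pairs, against 51.1% of all pairs. For Prkar1b 1416754_at the distance from the representative was -4.53 ± 0.28 for the shock arrays and -3.25 ± 0.50 for the female arrays (log2, SD, n = 3), a change of -1.28 (limma adjusted p = 0.0172). The distance of Adcy5 1439829_at, listed on the strand opposite to the representative, was -3.11 ± 0.10 in shock and -1.84 ± 0.47 in female. This was a change of -1.27 (limma adjusted p = 0.0161). Prkacb 1420610_at changed by -0.81 (95% interval -1.18 to -0.43, limma adjusted p = 0.019). In Adcy3 the change was -0.81 at 1421959_s_at (limma adjusted p = 0.0239) and -0.50 at 1436929_x_at (limma adjusted p = 0.0376), which has the same listed positions as the representative. No pair passed when any 1 shock array was left out.

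**Figure D3:**
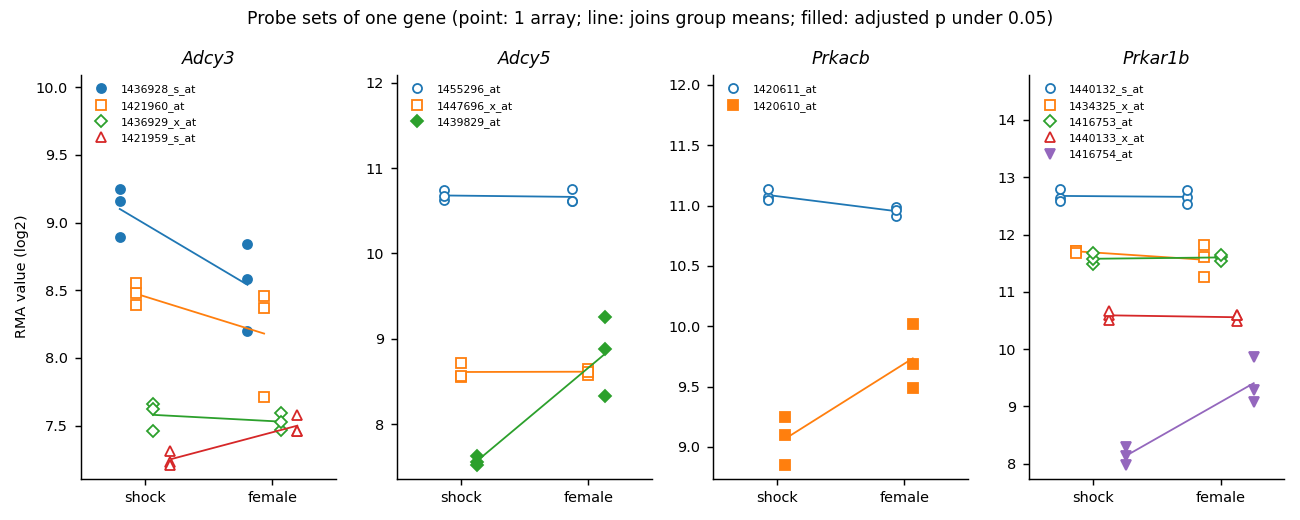
RMA values (log2) of the tested probe sets of Adcy3, Adcy5, Prkacb and Prkar1b, one point per array, with a line joining the means of shock and female. The top line is nearly level for Adcy5 and Prkar1b, while 1439829_at and 1416754_at, near the bottom, are higher in all 3 female arrays.

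The 5' minus 3' signal of the arrays was then added to the fit. The differences of the called probe sets of these genes were nearer 0 in it, except that of Prkaca, which was -0.34 without it. With the signal as a covariate, the difference of Adcy5 1439829_at was -0.53, that of Prkar1b 1416754_at -0.46 and that of Prkacb 1420610_at -0.18. Under the same fit Prkar2b was at 0.14, Adcy3 at 0.10 and Prkaca at -0.50, and none passed (limma adjusted p from 0.496 to 0.942 for these 3 representatives). Over the 6 arrays the squared correlation of this signal with the group was 0.776, so the signal and the group can hardly be told apart, and only 1 probe set of all 27022 passed. The part of the signal in these differences was not tested beyond this fit. Without female replicate 2 Adcy5 1439829_at was at -1.03, Prkar1b 1416754_at at -1.04 and Prkacb 1420610_at at -0.53, and all were still called. Prkar1b 1416754_at was called whichever array was left out. Adcy5 1439829_at lost the call without shock replicate 1 (limma adjusted p = 0.0503), and Prkacb 1420610_at without shock replicates 1 and 3.

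**Figure D4:**
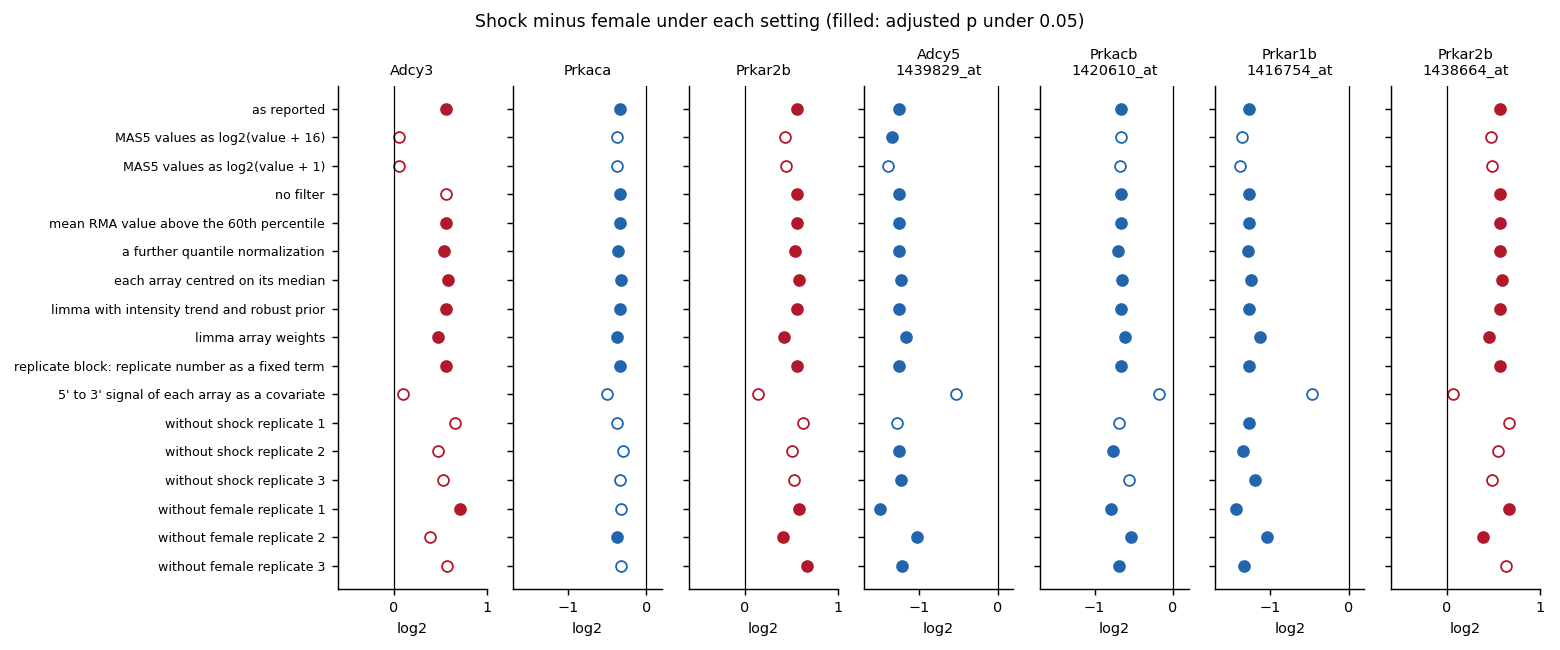
Shock minus female difference (log2) of the 7 probe sets that differed, under the reported fit and each alternative setting that keeps the probe set. Filled points have an adjusted p under 0.05. All points shown keep the side of 0 they have in the reported fit, and those with the 5' to 3' covariate are open in every panel. Settings that represent a gene by other probe sets are not shown, and with the most 3' representative Prkaca was at 0.097.

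Genes around the cyclases and the kinase were read from lists grouped by role. The test was passed by 6 of 36 genes, 4 of them higher in female and 2 higher in shock, and 30 did not pass. Over all genes 20.0% passed, 10.6% higher in shock and 9.40% higher in female, so the count is not above the background. Their median difference was 0.16, against 0.0612 over all genes, but -0.01 with each gene's probe sets averaged and -0.08 with the 5' to 3' covariate. Among the kinase's inhibitors, small proteins that bind free catalytic subunits, Pkib was higher in shock by 0.48 (limma adjusted p = 0.0291), with RMA values of 9.64, 9.51 and 9.73 in shock and 9.38, 8.96 and 9.11 in female. Pkib lost the call without any 1 shock array (limma adjusted p = 0.111, 0.0617 and 0.105) and without female replicate 3 (0.0673). It was at 0.13 with the 5' to 3' covariate (limma adjusted p = 0.889). On MAS5 values with 16 added it was at 0.53 (limma adjusted p = 0.111). Pkia was at 0.40 (limma adjusted p = 0.0645) and Pkig at 0.02. The other regulatory subunit genes, Prkar1a (0.22) and Prkar2a (0.30), did not pass, nor did the other cyclase genes Adcy7 (0.38), Adcy4 (-0.16) and Adcy6 (-0.07), while Adcy10 was too dim to test.

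None of 11 A-kinase anchoring protein genes, whose products hold the kinase at membranes and organelles, passed, with a median of 0.21. The smallest p-values were those of Akap12 (0.34, limma adjusted p = 0.0558) and Akap13 (0.34, limma adjusted p = 0.0703). Of 7 G protein alpha subunit genes, Gnaz, which encodes an inhibitory subunit, was higher in female. Its values were 9.98, 9.86 and 10.13 in shock and 10.47, 10.51 and 10.52 in female, a difference of -0.51 (limma adjusted p = 0.014). The call was lost without shock replicate 1 (limma adjusted p = 0.0714) or shock replicate 2 (0.0562). Gnaz did not pass with the 5' to 3' covariate (-0.51, limma adjusted p = 0.529) or on MAS5 values with 16 added (-0.34, limma adjusted p = 0.245). Gnai1 (0.35) and Gnao1 (-0.25) did not pass, nor did Gnas (0.04), which encodes the stimulatory subunit. Other cAMP effectors gave 0 of 3, with Rapgef4, encoding the exchange factor EPAC2, at 0.15 and Popdc3 at 0.10.

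In the CREB family list, the representatives of all 3 genes for CREB-regulated transcription coactivators were higher in female, though not every probe set was. Crtc1, the form most abundant in neurons, read 8.12, 8.23 and 8.21 in shock and 8.82, 8.86 and 8.93 in female, a difference of -0.68 (1.61-fold, limma adjusted p = 0.00495). Crtc3 was at -0.48 (limma adjusted p = 0.0252), while its other probe set, 1436379_at, which lies nearer the 3' end, was at -0.05 (limma adjusted p = 0.751), and Crtc2 at -0.41 (limma adjusted p = 0.0498). With the 5' to 3' covariate Crtc1 was at -0.66, Crtc3 at -0.14 and Crtc2 at -0.072. None of these passed (limma adjusted p = 0.406, 0.866 and 0.953). On MAS5 values with 16 added Crtc1 passed, at -0.8 (limma adjusted p = 0.0338). Crtc3 (-0.44, limma adjusted p = 0.239) and Crtc2 (-1.1, limma adjusted p = 0.106) did not. With all 45037 probe sets tested, Crtc2 lost the call (limma adjusted p = 0.0665). Ep300, which encodes the histone acetyltransferase p300, was higher in shock by 0.63 (limma adjusted p = 0.0418), but at -0.29 with the 5' to 3' covariate (limma adjusted p = 0.715) and at 0.30 on MAS5 values with 16 added (limma adjusted p = 0.413). Creb1 (0.20), Crem (0.30) and Crebbp (0.02) did not pass. Of 5 other tested probe sets for these 6 genes, from 4 genes, all had the sign of the representative and 3 were called, namely Crtc1 1458443_at at -1.04, Gnaz 1426517_at at -0.67 and Crtc2 1429373_x_at at -0.31. Crtc1 1446533_at, at -0.16, and the Crtc3 probe set did not pass. Over all tested probe sets 20.8% were called. The 6 genes had been picked by the call of their representative on the same arrays, so a shared sign or call is no separate support. Crtc1 was called whichever array was left out, while Crtc3 lost the call without shock replicates 1, 2 and 3 (limma adjusted p = 0.0877, 0.0703 and 0.0931). Without female replicate 2, Ep300 was at 0.38 (limma adjusted p = 0.0186) and Crtc2 at -0.29 (limma adjusted p = 0.0716). Ep300 lost the call without shock replicates 1, 2 and 3 (limma adjusted p = 0.146, 0.111 and 0.1), and Crtc2 kept it only without female replicate 1 (limma adjusted p = 0.033).

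**Figure D5:**
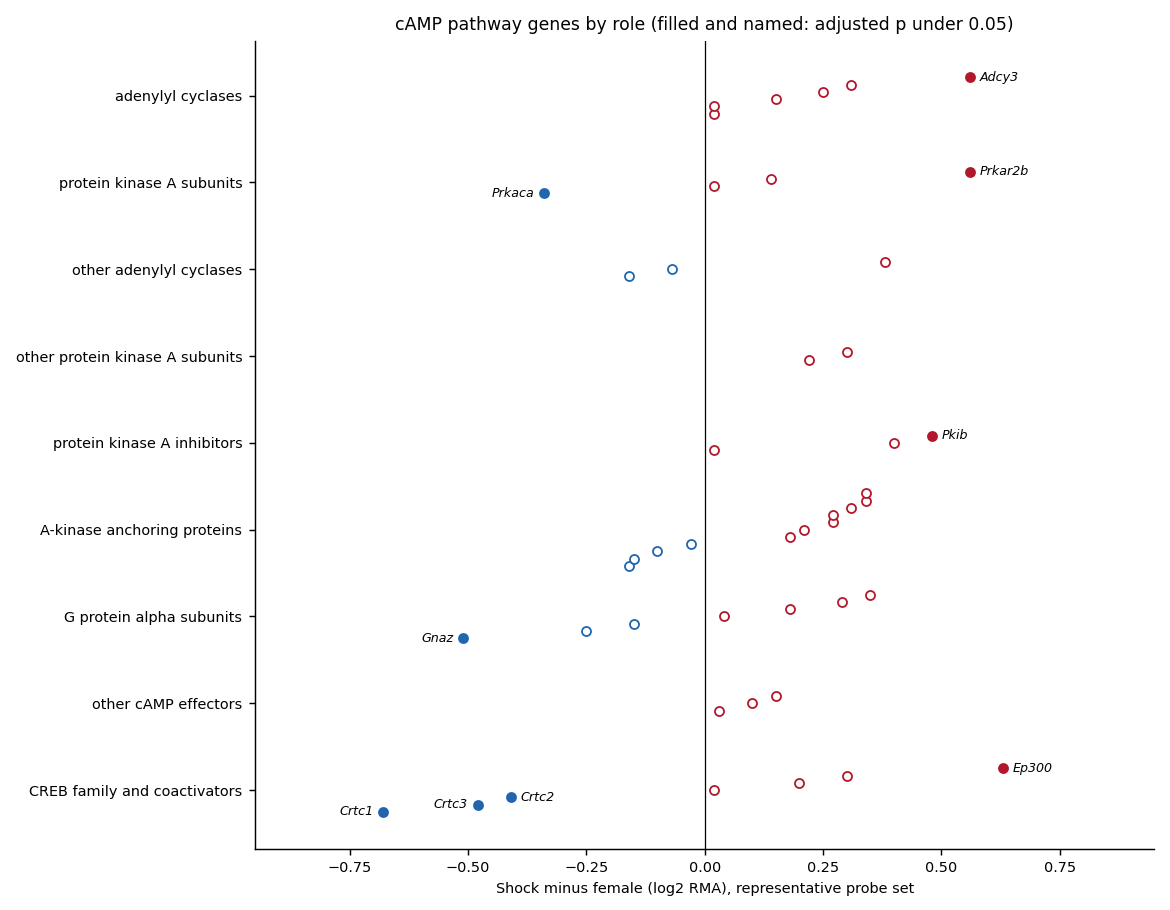
Shock minus female difference (log2 RMA) of the representative probe set of each tested gene, in rows by role, with the 10 cyclase and kinase genes in the top rows. Filled and named points have an adjusted p under 0.05. The coactivator genes Crtc1, Crtc2 and Crtc3 lie on the female side and Ep300 on the shock side. With the 5' to 3' covariate Ep300 moves to -0.29, Crtc2 to -0.072, Crtc3 to -0.14 and Crtc1 to -0.66, and none of them passes.

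Genes with the profile most like that of Prkar2b over the 6 arrays, out of 11645 compared, were Solh (Pearson r = 0.997), Mpp5 (0.996) and Sec14l3 (0.994), which were higher in shock by 0.40, 0.30 and 0.32. Those most like Prkaca were Itpkb (0.997), Cdk2ap1 (0.992) and Egfl7 (0.989), at -0.43, -0.35 and -0.27. These correlations are descriptions over arrays that share the group difference and the 5' to 3' difference.

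Promoter sequence is shown for the 3 genes whose representative differed, since cAMP-dependent transcription acts through the cAMP response element (CRE). RefSeq windows of 300 bases (build GRCm38.p6, 250 before to 50 after an annotated start) were matched by symbol for 9 of the 10 genes, 18 windows in all. Neither strand of any of them held the full element TGACGTCA, which 1.79% of all 32851 windows hold. The core element TGACG, searched on both strands and contained in the full one, was in 4 of the 18 windows, against 20.8% of all windows. These belong to Prkaca, Prkacb, Prkar1b and Adcy9. In Prkaca it occurs on the reverse strand at bases -120 and -6 from the annotated start. Capitals mark the core element, written 5' to 3' on the strand of the gene, and the windows are chr8:83972728-83973027, plus strand for Prkaca, chr12:32061228-32061527, minus strand for Prkar2b and chr12:4133147-4133446, plus strand for Adcy3.
Prkaca: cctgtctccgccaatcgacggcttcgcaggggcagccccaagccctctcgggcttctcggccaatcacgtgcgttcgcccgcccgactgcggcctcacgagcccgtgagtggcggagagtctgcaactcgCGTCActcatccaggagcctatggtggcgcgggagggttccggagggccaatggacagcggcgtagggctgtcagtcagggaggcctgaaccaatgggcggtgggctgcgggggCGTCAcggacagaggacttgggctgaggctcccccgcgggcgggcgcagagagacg
Prkar2b: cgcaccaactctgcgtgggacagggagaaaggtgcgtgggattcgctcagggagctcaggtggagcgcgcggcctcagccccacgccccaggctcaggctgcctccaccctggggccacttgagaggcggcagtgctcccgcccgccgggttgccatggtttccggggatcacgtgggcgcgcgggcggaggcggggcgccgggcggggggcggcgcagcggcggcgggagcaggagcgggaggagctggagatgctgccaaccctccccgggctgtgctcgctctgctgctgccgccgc
Adcy3: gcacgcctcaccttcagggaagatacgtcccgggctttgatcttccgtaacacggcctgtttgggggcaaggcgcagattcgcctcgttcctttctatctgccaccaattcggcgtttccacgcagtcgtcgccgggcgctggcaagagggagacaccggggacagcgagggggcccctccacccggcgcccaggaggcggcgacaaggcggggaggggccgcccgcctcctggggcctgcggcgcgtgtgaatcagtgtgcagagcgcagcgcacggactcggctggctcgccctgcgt
The window shown is that of the most upstream annotated start of each gene. The second Prkaca window and both windows of Prkar2b and of Adcy3 hold no core element. Prkacb, Prkar1b and Adcy9 hold it, and their representatives did not pass, so no relation between the element and the direction is read from these windows. A match is a run of letters in this window and not a binding site.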

How the data were processed

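Values of 6 arrays were read from the series' value table. The deposited RMA values are log2, and the deposited MAS5 values are intensity on a linear scale, per the labels; tool versions and the MAS5 scaling target are not stated in those sources. The authors' deposited tables give log2 group averages, a signed fold (a score, negative where shock is higher), a p-value by ANOVA and its FDR form (per the file headers), and supplied symbols and positions. Their test is not the one used here.

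Shock minus female was fitted in R 4.3.3 by limma 3.58.1 (lmFit, eBayes; group as the only term) on 27022 of 45037 probe sets, those with a mean over the 40th percentile of mean RMA (6.31), after 64 controls were set apart. P-values are 2-sided and were adjusted by Benjamini-Hochberg across every tested probe set, with a threshold of 0.05. Within-gene pairs were fitted the same way over 10699 pairs. The 5' minus 3' signal uses, in 2740 genes, the tested probe sets furthest apart by listed midpoint (500 to 20000 bases). Alternatives were MAS5 values as log2(value + 16) or log2(value + 1), other filters, normalizations, priors, array weights, a replicate block, the 5' to 3' covariate, other representatives, and leaving out each array.

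Named genes are all 10 members, pathway genes that passed or otherwise the 2 with the smallest p of each list, and the 3 most correlated genes of 2 members, leaving out predicted models; some uncalled pathway genes were also named after their values were seen. Members, lists and tests were chosen with earlier results of these data known. Calmodulin genes and Atf1 had no probe set of their own symbol. The number of arrays limits the precision of every value. The steps were tested on simulated data.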

Additional observations from a re-analysis of the deposited data

How the results depend on the processing

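The reported counts were 3 of the 10 genes, 7 of their probe sets, 5 within-gene pairs and 6 surrounding pathway genes. On MAS5 values they were 0, 1, 0 and 1 with a pseudocount of 16 and 0, 0, 0 and 1 with 1, and with the 5' to 3' covariate all were 0. Above the 60th percentile 3 pairs passed. The Adcy3 pairs that had passed were not tested there, since their dimmer probe sets fell under that filter. Representatives chosen by the largest SD gave 6 of the 10 genes and 13 pathway genes. That SD is taken over the same 6 arrays, both groups together, so the rule favours probe sets that differ between the groups. The share over all genes under this rule was not computed, so these counts have no background. Averaging each gene's probe sets gave 1 of the 10, Adcy5. Its average includes 1439829_at (-1.25), listed on the strand opposite to its representative (0.02). Leaving out 1 array gave 0 to 2 genes, 1 to 6 probe sets, 0 to 6 pairs and 1 to 9 pathway genes. The share of all tested probe sets that passed moved as well. It was 20.8% as reported, 2.01% and 1.03% on MAS5 values with 16 and 1 added, and 0.0037% with the covariate. Without shock replicates 1, 2 and 3 it was 1.19%, 5.78% and 4.86%. Without female replicates 1, 2 and 3 it was 25%, 20.6% and 13.4%. Over single differences, 476 kept direction and call. With the direction kept, 113 lost the call and 1 gained it. The sign changed in 60, of which 4 also gained the call and 4 lost it. The cause was not tested.

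Signs changed as follows. On MAS5 values, with 16 and then 1 added, Adcy5 was at -0.031 and -0.032, Adcy9 at -0.11 in both, Prkar1b 1416753_at at 0.065 in both, Adcy3 1421960_at at -0.042 and -0.043, Prkar2b 1430640_a_at at 0.32 and 0.33, and the Adcy3 1436929_x_at pair at 0.0013 and 0.0035. Quantile normalization put Adcy1 at -0.014, and median centring 1430640_a_at at 0.0018 and Adcy5 1447696_x_at at 0.019. Array weights put Adcy5 at -0.029, Adcy9 at -0.0029, Prkar1b at -0.037, Prkar1b 1434325_x_at at -0.028 and 1430640_a_at at 0.078. The covariate put Adcy2 at -0.20, Adcy5 at -0.044, Adcy9 at -0.52, Prkar1b at -0.18, Adcy9 1419811_at at -0.60, 1421960_at at -0.48, 1434325_x_at at -0.39, 1430640_a_at at 0.55, Prkar1b 1440133_x_at at -0.10, Adcy1 1445359_at at 0.27, Prkaca 1447720_x_at at -0.058 and Ep300 at -0.29. The most 3' representative put Adcy5 at -0.0037 and Prkaca at 0.097. The largest-SD representative put Adcy1 at -0.15, Adcy5 at -1.25, Prkacb at -0.67 and Prkar1b at -1.27, and the mean of probe sets put them at -0.063, -0.41, -0.27 and -0.22. Leaving out 1 array, Adcy1 ran from -0.067 to 0.12, Adcy5 from -0.013 to 0.065, Adcy9 from -0.023 to 0.26, Prkar1b from -0.049 to 0.078, 1447696_x_at from -0.057 to 0.025, 1447720_x_at from -0.035 to 0.18, 1416753_at from -0.07 to 0.024, 1434325_x_at from -0.007 to 0.27, 1440133_x_at from -0.012 to 0.077 and 1430640_a_at from -0.11 to 0.15.

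With the replicate number as a block, 4 genes (Adcy8 added, limma adjusted p = 0.0479), 8 probe sets, 7 pairs and 8 pathway genes passed. The share of all probe sets that passed rose with the block too, from 20.8% to 26.3%. Deviations of same-numbered arrays correlated at 0.01, 0.21 and 0.15, and those of differently numbered arrays at -0.21 to 0.12. Shock replicate 1 correlated best with female replicate 3. The labels give no pairing, and whether arrays of the same number share a batch was not tested.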
